A study of Mus musculus with 9 samples.

Results

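This comparison set 3 libraries of Caki cells carrying YAP1-S127A against 3 libraries of the same cells carrying wild-type YAP1, 6 of the 9 libraries of the series. Its members were all 15492 genes, of 58735 in the table, that passed a filter on low counts. Caki cells are a long-established line from a human carcinoma of the kidney. Cells of each group received a retroviral vector and were selected with G418: the YAP1 group received the wild-type coding sequence, the YAP1-S127A group a form described as constitutively active, and the MX group, shown beside both, the empty vector. The labels do not name the promoter and do not say whether the selected cells were pools or clones. Nor do they say that replicates are separate cultures, and p-values then reflect spread among libraries that may be only technical. The organism is labelled as mouse, whereas the table lists human Ensembl genes and is read here as human. Positions below are those of the table, with no human genome build given in the sources used here.

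YAP1 is a coactivator of transcription, brought to DNA by TEAD factors and restrained by the Hippo pathway. The Hippo kinases LATS1 and LATS2 phosphorylate several serines of YAP1, after which the protein can be held in the cytoplasm or degraded. In YAP1-S127A an alanine replaces a single such serine, so that site cannot be phosphorylated. In epithelia, active YAP1 is known for genes of growth, matrix and cell shape, and some of its targets, among them LATS2 and the angiomotin AMOTL2, feed back on the pathway. Both constructs add YAP1 to cells that have their own, and the comparison asks which transcripts differ when the added protein lacks that site. The level of the YAP1 transcript also differed between the groups, as given next. Effects of the site and of the level cannot be told apart in any difference below.

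The YAP1 transcript (ENSG00000137693, chromosome 11, 102110461 to 102233423, plus strand) was lower with YAP1-S127A than with wild-type YAP1. In replicate order, as for all values below, the level was 108, 100.3 and 91.1 CPM (counts scaled to library size) in the MX libraries. With YAP1 it was 1519.5, 1003 and 1137 CPM, and 741, 692 and 631 CPM with YAP1-S127A. Where a gene below has 2 sets of 3 values, the YAP1 libraries come first and the YAP1-S127A libraries second. All 3 YAP1-S127A libraries lay below all 3 YAP1 libraries and above all MX libraries, with log2 fold change -0.83, SE 0.15, adjusted p = 0.00383 between the constructs. The table does not separate the cells' own transcript from that of the construct. The call was lost with the share of mitochondrial counts as a covariate (log2 fold change -0.80, adjusted p = 0.0541).

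**Figure D1:**
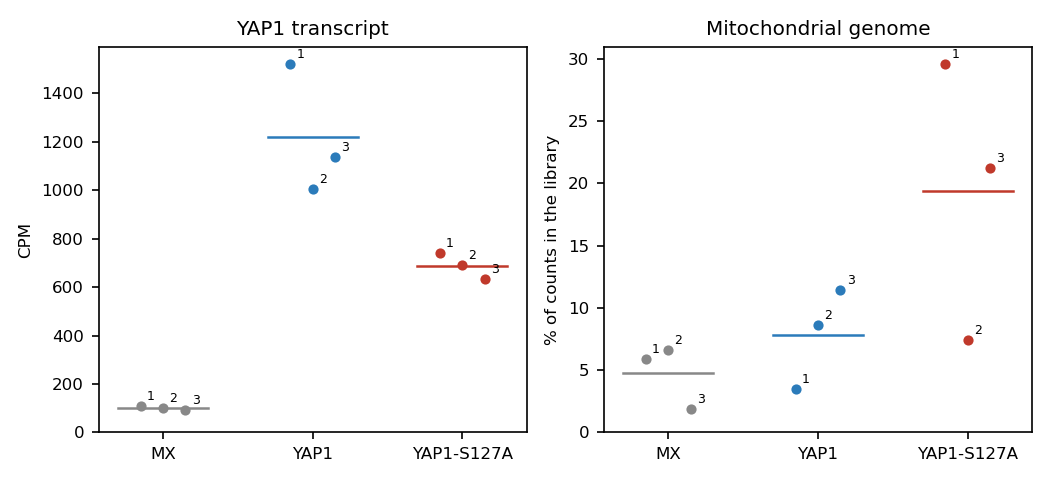
Level of the YAP1 transcript (left, CPM) and share of counts from the mitochondrial genome (right, percent) in each library of the 3 groups, with replicate numbers beside the points and bars at the mean of 3. YAP1 was 1519.5, 1003 and 1137 CPM with YAP1 against 741, 692 and 631 CPM with YAP1-S127A, while the mitochondrial shares of those 2 groups overlap.

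The 6 libraries held 15789722 to 22498605 counts. Transcripts of the mitochondrial genome took 29.6, 7.40 and 21.2% of the counts with YAP1-S127A and 3.50, 8.60 and 11.4% with YAP1, a difference in means of 11.56 percentage points (two-sided exact permutation test, p = 0.3, the design allowing no p below 0.1). Of the 29 tested mitochondrial genes, whose median log2 fold change was 1.56, edgeR's test called 0 (for the 13 that encode proteins also 0 at an unadjusted p under 0.05, 0 by limma-voom and 0 by DESeq2). Their share enters below through a fit that has it as a covariate. The constructs did not overlap on the first principal component of the 6 libraries, which took 37.1% of the variance in the 2000 genes that varied most.

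At an adjusted p under 0.05 edgeR's quasi-likelihood test called 305 of 15492 genes (1.97%). Of these, 175 (1.13%) were higher and 130 (0.839%) lower with YAP1-S127A. YAP1-S127A against MX called 18.4% of genes at that threshold and wild-type YAP1 against MX 6.81%, in comparisons that share libraries with this one. A change of at least 2-fold was found for 124 called genes (0.8% of all tested), 85 higher (0.549%) and 39 lower (0.252%). At an unadjusted p under 0.05 the share was 12.3%. The median absolute log2 fold change of the called genes was 0.88, and the smallest was 0.44. The libraries of both groups did not overlap for 3036 genes (19.6%), of which 1589 (10.3%) were higher and 1447 (9.34%) lower with YAP1-S127A. Among called genes 304 of 305 did not overlap, the exception being SULF2, a heparan sulfate endosulfatase, named after its values were seen. SULF2 had 19.7 ± 5.42 CPM with YAP1 (mean and SD, n = 3) against 34.8 ± 9.98 CPM with YAP1-S127A (log2 fold change 0.83, SE 0.20, adjusted p = 0.0460). Separate groups are thus no further finding for any called gene below.

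Most of the called genes were protein-coding, 292 of 13045 (2.24%), against 10 of 1524 long noncoding RNAs (0.656%) and 3 of 784 pseudogenes (0.383%). The median standard error was 0.15 for protein-coding genes and 0.38 for long noncoding RNAs. By level, 0.835% of genes with a mean log2 CPM under 0 and 2.70% of those from 2 to 4 were called. By gene length the median log2 fold change went from 0.07 in the shortest of 5 equal classes to -0.04 in the longest. The median over all tested genes was 0.01, and by chromosome it ran from -0.08 (chromosome 17) to 0.08 (chromosome 12) outside the mitochondrial genome.

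The counts moved with the scaling and with single libraries. Scaled to total counts, which include the mitochondrial transcripts, the median of all genes was -0.20, and 113 genes were higher and 503 lower. Without YAP1-S127A replicate 3 the count fell to 126, and without MX replicate 1, which enters through the shared estimate of spread, it was 465. With YAP1-S127A reduced to its replicate 2, the library with the lowest mitochondrial share of its group, 151 genes were called, on the assumption that this lone library varies like those of the other groups. Besides YAP1, 102 called genes were singled out for repeated fits. Of these, 46 of 102 lost the call in a test against a minimum fold of 1.2, and 34 of 102 with the mitochondrial share as covariate. In any fit 0 turned direction past the threshold.

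**Figure D2:**
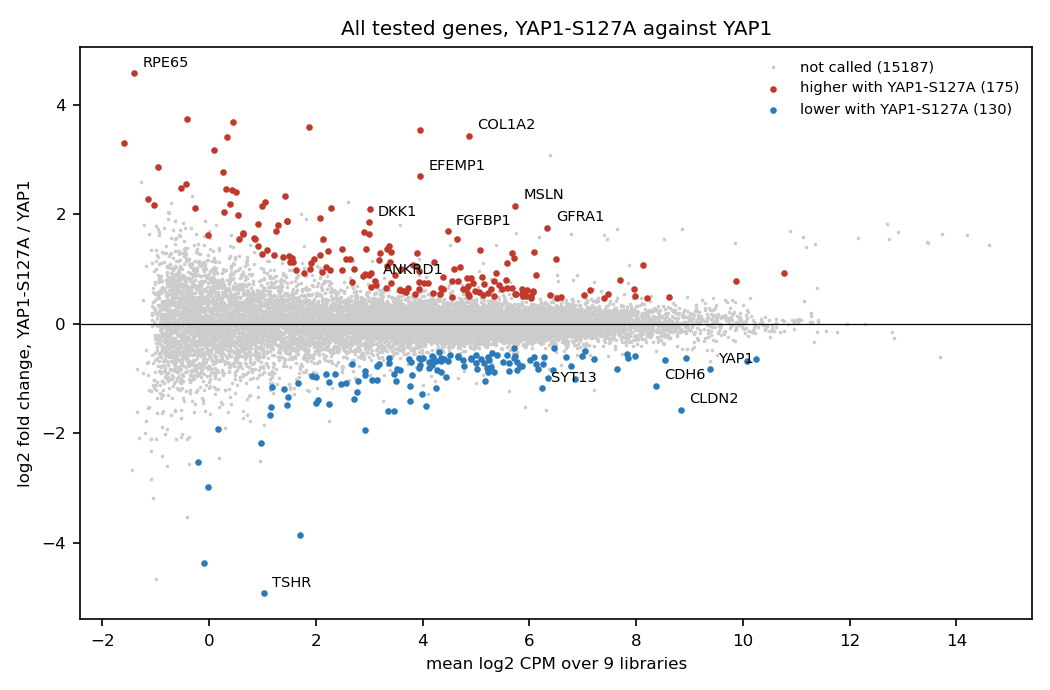
Log2 fold change of YAP1-S127A over YAP1 (vertical) against the mean log2 CPM of 9 libraries (horizontal) for all 15492 tested genes. Red points are the 175 genes called higher, blue points the 130 called lower at an adjusted p under 0.05 and grey points the rest, and large changes such as those of RPE65 and TSHR sit at the low-level end.

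Among the textbook targets of YAP1, 2 of the 4 named by rule were called higher with YAP1-S127A, beside 1.13% of all tested genes. AMOTL2 (ENSG00000114019, chromosome 3, 134355874 to 134375479, minus strand), an angiomotin that binds and restrains YAP1, stood at 132, 138 and 133 CPM with YAP1 against 205, 199 and 214 CPM with YAP1-S127A. That is log2 fold change 0.62, SE 0.11, adjusted p = 0.00322, in groups that did not overlap. ANKRD1, a nuclear ankyrin-repeat protein, stood at 9.02, 9.86 and 7.54 CPM with YAP1 against 16.02, 12.2 and 17.2 CPM with YAP1-S127A (log2 fold change 0.79, SE 0.17, adjusted p = 0.0194). CYR61, a secreted protein of the matrix, had 265, 333 and 288 CPM with YAP1 against 361, 285 and 504 CPM with YAP1-S127A. YAP1-S127A replicate 2 fell among the YAP1 libraries, and the gene did not pass (log2 fold change 0.38, SE 0.17, adjusted p = 0.393). With that replicate alone in its group the log2 fold change was -0.06. CTGF, a secreted protein of the same family, had 106, 153 and 137 CPM with YAP1 and, with YAP1-S127A, 165, 153 and 212 CPM. Its groups did not overlap, though the nearest libraries lay within 1 CPM, and it did not pass (log2 fold change 0.42, SE 0.15, adjusted p = 0.188).

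Of 21 tested members of a YAP/TAZ target signature 5 were higher and 0 lower (23.8% called, beside 1.97% of all tested genes), and the median log2 fold change was 0.26 beside 0.01 for all genes. Besides AMOTL2 and ANKRD1 these were CRIM1, a transmembrane protein that binds BMPs, at 150.2, 199 and 186 against 247, 318 and 365 CPM (log2 fold change 0.80, SE 0.15, adjusted p = 0.00489), the ligand TGFB2, and the kinase LATS2. The member with the largest difference, IGFBP3, a binding protein of insulin-like growth factors, had 165, 119 and 63.4 CPM with YAP1 against 267, 586 and 296 CPM with YAP1-S127A. Its libraries did not overlap but spread widely, and it did not pass (log2 fold change 1.73, SE 0.52, adjusted p = 0.239). The signature's summed level was 2175 to 2376 CPM with YAP1 against 2812 to 3320 CPM with YAP1-S127A. Without 1 library at a time 2 to 6 members were called, fewest without YAP1-S127A replicate 3. Scaled to total counts, the 2 members CRIM1 and TGFB2 were left as calls. The signature and the lists below were chosen with earlier results of these data known. Their called shares are thus description and no independent test.

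Of 31 Hippo pathway components 4 were higher and 2 lower (19.4% called, beside the same 1.97%), YAP1 itself among the latter. LATS2, the kinase that phosphorylates YAP1, stood at 28.1, 28.2 and 28.7 CPM with YAP1 against 38.7, 40.02 and 41.1 CPM with YAP1-S127A (log2 fold change 0.50, SE 0.12, adjusted p = 0.0373). FRMD6, a FERM-domain scaffold upstream of the kinases, stood at 46.2, 46.2 and 46.8 against 64.1, 72.9 and 80.1 CPM (log2 fold change 0.64, SE 0.12, adjusted p = 0.00706). AJUBA, a LIM protein that binds LATS kinases, stood at 106, 95.8 and 96.8 against 133, 145 and 139.7 CPM (log2 fold change 0.48, SE 0.11, adjusted p = 0.0173). In each of these 3 genes every YAP1-S127A library lay above every YAP1 library, and 304 of all 305 called genes were likewise separate. AMOTL1, another angiomotin, went the other way, from 37.1, 32.9 and 39.6 CPM with YAP1 to 26.3, 24.8 and 19.9 CPM with YAP1-S127A (log2 fold change -0.63, SE 0.14, adjusted p = 0.0177). WWTR1, the YAP1 paralog TAZ, at 0.11, TEAD1 at 0.12, TEAD4 at 0.05 and LATS1 at -0.09 on the log2 scale did not pass. Without YAP1-S127A replicate 3 the list had 1 higher and 1 lower, and without YAP1 replicate 3 it had 2 and 1.

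The calls of these pathway genes were small and several were close to the threshold. The call of ANKRD1 was lost (adjusted p 0.0647 to 0.168 without any 1 of YAP1 replicates 1 or 3 or YAP1-S127A replicates 1 or 3). CRIM1 lost its call as well (adjusted p 0.0604 without YAP1-S127A replicate 3). The call of LATS2 was lost (adjusted p 0.0567 to 0.177 without any 1 of MX replicate 3 or YAP1 replicates 1, 2 or 3 or YAP1-S127A replicates 1, 2 or 3). FRMD6 lost its call as well (adjusted p 0.0792 without YAP1-S127A replicate 3). The call of AJUBA was lost (adjusted p 0.0897 to 0.116 without any 1 of YAP1 replicates 2 or 3 or YAP1-S127A replicates 2 or 3). AMOTL1 lost its call as well (adjusted p 0.0714 to 0.152 without any 1 of YAP1 replicates 1 or 3 or YAP1-S127A replicate 3). Scaled to total counts, calls were lost for AMOTL2 (adjusted p = 0.124), ANKRD1 (0.0822), LATS2 (0.3), FRMD6 (0.0961) and AJUBA (0.302), and with the mitochondrial share as covariate for ANKRD1 (0.259), LATS2 (0.125) and AMOTL1 (0.101). In that last fit the log2 fold changes were 0.61, 0.52 and -0.63, so those of LATS2 and AMOTL1 hardly moved.

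Of the 12 largest rises in called protein-coding genes of higher level (mean log2 CPM 3 or more), 3 were those of mesothelin, a growth factor carrier and an integrin chain. MSLN (ENSG00000102854, chromosome 16, 760762 to 768865, plus strand), the surface glycoprotein mesothelin, stood at 28.2, 34.6 and 23.6 CPM with YAP1 against 92.7, 154 and 137 CPM with YAP1-S127A, a 4.46-fold difference (log2 fold change 2.16, SE 0.23, adjusted p = 0.000386). FGFBP1 (ENSG00000137440, chromosome 4, 15935569 to 15938740, minus strand), a carrier that releases fibroblast growth factors from the matrix, stood at 14.9, 16.5 and 13.6 against 37.1, 46.6 and 60.6 CPM (log2 fold change 1.69, SE 0.17, adjusted p = 3.32e-05). ITGB2, the beta chain of leukocyte integrins, stood at 4.04, 5.50 and 4.30 against 12.8, 24.4 and 21.6 CPM (log2 fold change 2.10, SE 0.25, adjusted p = 0.000232). For all 3 genes the lowest YAP1-S127A library was over 2-fold above the highest YAP1 library.

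**Figure D3:**
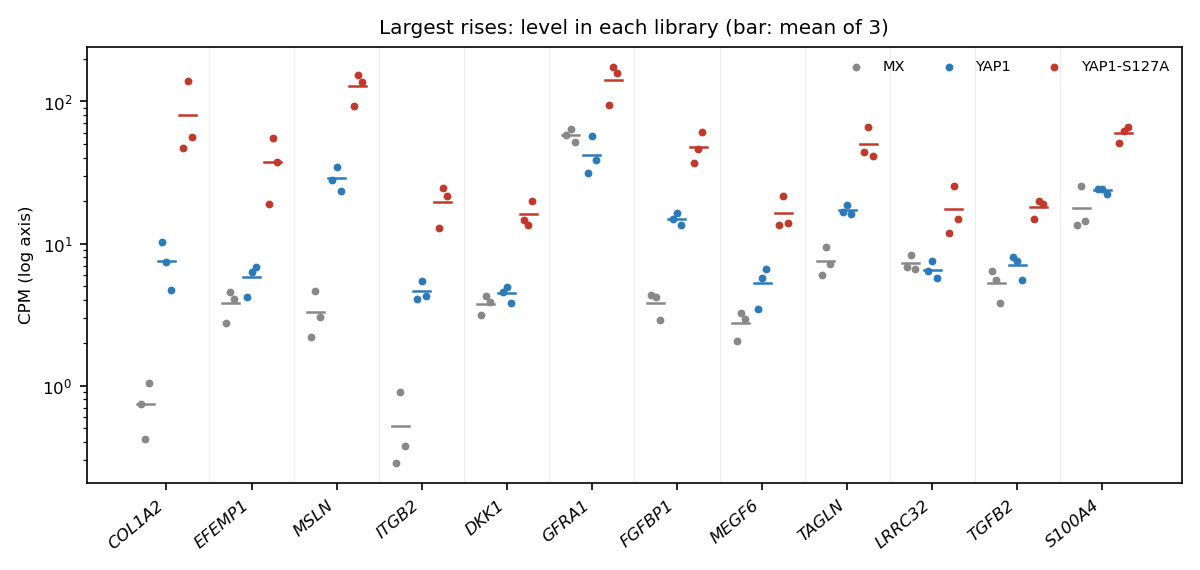
CPM on a log axis in each library for the 12 largest rises by the naming rule, with grey MX, blue YAP1 and red YAP1-S127A points and bars at the mean of 3. The rule took only genes whose groups do not overlap, and COL1A2 and EFEMP1 spread most within YAP1-S127A.

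Wnt signalling genes gave 3 rises and 1 fall among 17 tested (23.5% called, beside 1.97% of all genes), with a median log2 fold change of -0.08. DKK1 (ENSG00000107984, chromosome 10, 52314296 to 52318042, plus strand), a secreted inhibitor of the Wnt co-receptors LRP5 and LRP6, stood at 4.56, 4.99 and 3.82 CPM with YAP1 against 14.7, 13.5 and 19.96 CPM with YAP1-S127A (log2 fold change 1.86, SE 0.19, adjusted p = 3.32e-05). WNT10A, a Wnt ligand, stood at 3.78, 4.87 and 5.55 against 13.04, 14.8 and 17.7 CPM (log2 fold change 1.68, SE 0.21, adjusted p = 0.000238). DKK3, a secreted protein of the Dickkopf family, stood at 236, 237 and 257 against 412, 576 and 545 CPM (log2 fold change 1.07, SE 0.14, adjusted p = 0.000360). TCF7, a transcription factor through which Wnt signals act, was lower, at 15.03, 12.5 and 14.4 against 9.61, 7.04 and 6.88 CPM (log2 fold change -0.84, SE 0.16, adjusted p = 0.00584). Within this list the called ligand and inhibitors were thus higher, while the remaining 13 genes did not pass. AXIN2, a Wnt target, was among those at -0.996 on the log2 scale. Of the 4 calls, that of TCF7 was lost in 1 fit (adjusted p 0.0644 without YAP1-S127A replicate 3), and the other 3 held in every fit run. Outside the list TRABD2B, a protease that acts on Wnt ligands, was lower (log2 fold change -3.85, adjusted p = 0.000697). Its counts are given among the genes of low level.

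Of 19 genes of TGF-beta ligands, receptors and carriers 2 were higher and 0 lower (10.5% called, beside 1.97% of all genes), with a median of 0.12. TGFB2, a TGF-beta ligand, stood at 8.08, 7.54 and 5.50 CPM with YAP1 against 14.9, 19.98 and 19.1 CPM with YAP1-S127A (log2 fold change 1.36, SE 0.20, adjusted p = 0.000903). LRRC32, which tethers latent TGF-beta to the cell surface, stood at 6.37, 7.54 and 5.77 against 11.9, 25.4 and 14.9 CPM (log2 fold change 1.42, SE 0.23, adjusted p = 0.00194). Both kept their calls in every fit run. Among 13 targets of TGF-beta and BMP, 1 was higher and 1 lower (15.4% called). ID2, which blocks DNA binding by basic helix-loop-helix factors, was lower at 13.8, 14.4 and 12.1 against 7.24, 8.75 and 8.67 CPM (log2 fold change -0.70, SE 0.14, adjusted p = 0.0107). The median of that list was -0.08, and its other 11 genes did not pass. ID2 lost its call in other fits (adjusted p 0.0665 without YAP1 replicate 2, and 0.149 with the mitochondrial share as covariate, at a log2 fold change of -0.60).

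Other growth factor genes moved singly. GFRA1, a co-receptor for glial cell line-derived neurotrophic factor, stood at 31.1, 56.9 and 38.9 CPM with YAP1 against 94.6, 175 and 158 CPM with YAP1-S127A (log2 fold change 1.76, SE 0.25, adjusted p = 0.00496). FGF18, a fibroblast growth factor, was low at 0.259, 0.623 and 0.887 against 4.19, 2.79 and 2.94 CPM (log2 fold change 2.45, SE 0.41, adjusted p = 0.00237), while SPRY1, an inhibitor of receptor tyrosine kinase signalling, was lower at 6.17, 4.14 and 4.04 against 1.98, 1.84 and 1.73 CPM (log2 fold change -1.37, SE 0.23, adjusted p = 0.00280). Of 14 FGF genes FGFBP1 and FGF18 were thus higher and SPRY1 lower (21.4% called, beside 1.97% of all genes), with a median of -0.07. BDNF, a neurotrophin, was higher at 16.8, 14.3 and 13.3 against 20.3, 29.1 and 25.01 CPM (log2 fold change 0.75, SE 0.16, adjusted p = 0.0134). The ERBB ligand HBEGF was higher, at 54.4, 55.8 and 59.01 against 93.95, 68.6 and 85.3 CPM (log2 fold change 0.55, SE 0.12, adjusted p = 0.0193). AREG, another ligand of that family, was lower, at 68.1, 48.7 and 42.1 against 37.2, 25.2 and 34.6 CPM (log2 fold change -0.71, SE 0.16, adjusted p = 0.0280). CSF2, a colony-stimulating factor and the 1 called member of 25 NF-kB and inflammatory genes (4%), stood at 1.45, 1.42 and 2.17 against 5.41, 5.07 and 8.04 CPM (log2 fold change 1.87, SE 0.31, adjusted p = 0.00237). The call of GFRA1 was lost (adjusted p 0.0683 without MX replicate 1, and 0.112 with the 6 libraries alone). BDNF lost its call as well (adjusted p 0.0767 to 0.102 without any 1 of YAP1 replicates 2 or 3 or YAP1-S127A replicates 2 or 3, and 0.0621 scaled to total counts). The call of HBEGF was lost (adjusted p 0.0733 to 0.113 without any 1 of YAP1 replicates 1, 2 or 3 or YAP1-S127A replicates 1 or 3, 0.218 scaled to total counts and 0.411 with the mitochondrial covariate, at a log2 fold change of 0.33). AREG lost its call as well (adjusted p 0.0531 to 0.192 without any 1 of MX replicate 1 or YAP1 replicates 1 or 2 or YAP1-S127A replicates 2 or 3, 0.112 with the 6 libraries alone and 0.0698 with the mitochondrial covariate, at a log2 fold change of -0.86).

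Matrix genes changed in both directions. COL1A2 (ENSG00000164692, chromosome 7, 94394561 to 94431232, plus strand), a chain of type I collagen, had the largest rise of any protein-coding gene at that level that the naming rule took, from 10.3, 7.48 and 4.70 CPM with YAP1 to 47.2, 138 and 55.95 CPM with YAP1-S127A, a 10.8-fold difference (log2 fold change 3.43, SE 0.53, adjusted p = 0.0330). Its partner chain COL1A1 stood far higher, at 1299, 1649.7 and 1496 against 2055, 3742 and 2682 CPM, with log2 fold change 0.93, SE 0.22, adjusted p = 0.0418. COL12A1, a collagen associated with fibrils, stood at 67.8, 79.7 and 72.98 against 90.98, 115 and 124 CPM (log2 fold change 0.58, SE 0.13, adjusted p = 0.0177). In all 3 collagens the groups did not overlap, as in 304 of all 305 called genes. They were the calls among 20 tested collagens of the list (15%, beside 1.97% of all genes), which had 0 lower and a median of 0.21. Without YAP1 replicate 3 the list had 0 calls, and scaled to total counts 2 higher and 1 lower. Outside the list 2 further collagens were called. COL11A1 was higher, with its counts given among the genes of low level, and COL14A1, named after its values were seen, was lower at 14.8, 19.5 and 15.9 against 7.47, 10.8 and 7.93 CPM (log2 fold change -0.93, SE 0.17, adjusted p = 0.00463). Replicate 2 was the highest YAP1-S127A library for COL1A2 and COL1A1.

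Among 26 genes of elastic fibres and matricellular proteins, 3 were higher and 1 lower (15.4% called, beside 1.97% of all genes), with a median of 0.24. EFEMP1, a fibulin, stood at 4.20, 6.29 and 6.88 CPM with YAP1 against 19.1, 55.2 and 37.7 CPM with YAP1-S127A (log2 fold change 2.69, SE 0.39, adjusted p = 0.00980). LUM, the proteoglycan lumican that binds collagen fibrils, stood at 2.38, 2.95 and 2.26 against 6.71, 12.4 and 9.46 CPM (log2 fold change 1.92, SE 0.27, adjusted p = 0.000627). MFAP5, a microfibril protein, stood at 1.45, 1.19 and 0.887 against 3.36, 3.36 and 3.52 CPM (log2 fold change 1.54, SE 0.30, adjusted p = 0.00706). THBS2, a thrombospondin, was lower at 470.5, 593 and 622 against 378, 341 and 367 CPM (log2 fold change -0.63, SE 0.13, adjusted p = 0.00855). The libraries of the groups were separate in all 4, as in 304 of all 305 called genes. BGN, the proteoglycan biglycan, named after its values were seen, had the list's largest log2 fold change, 3.08 (SE 0.67, adjusted p = 0.104), at 28.3, 20.9 and 9.54 against 79.2, 302 and 114 CPM, and did not pass. Of 14 basement membrane genes 0 were higher and 2 lower (14.3% called), both laminin chains. LAMA4 stood at 152, 185 and 176 against 109, 91.5 and 88.3 CPM (log2 fold change -0.83, SE 0.12, adjusted p = 0.000964). LAMA3 stood at 97.3, 134 and 152 against 85.6, 77.6 and 90.3 CPM (log2 fold change -0.60, SE 0.15, adjusted p = 0.0418).

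These matrix calls differed in how firmly they held. LUM and LAMA4 were called in every fit run. COL1A2 lost its call in 7 of 9 fits without 1 library (adjusted p 0.0559 to 0.140 without any 1 of MX replicates 1, 2 or 3 or YAP1 replicates 1, 2 or 3 or YAP1-S127A replicate 3), with the 6 libraries alone (0.0967) and with the replicate number as a block (0.0661), in each of which its direction was the same. The call of COL1A1 was lost (adjusted p 0.0735 to 0.213 without any 1 of MX replicate 1 or YAP1 replicates 1, 2 or 3 or YAP1-S127A replicates 2 or 3, and 0.0782 by DESeq2). COL12A1 lost its call as well (adjusted p 0.0816 to 0.152 without any 1 of YAP1 replicates 1 or 3 or YAP1-S127A replicates 2 or 3, and 0.150 scaled to total counts). The call of EFEMP1 was lost (adjusted p 0.0535 without YAP1 replicate 2, and 0.0924 with the 6 libraries alone). MFAP5 lost its call as well (adjusted p 0.0652 without YAP1 replicate 3). The call of THBS2 was lost (adjusted p 0.0564 to 0.0808 without any 1 of YAP1 replicates 2 or 3 or YAP1-S127A replicates 2 or 3). LAMA3 lost its call as well (adjusted p 0.0571 to 0.255 without any 1 of MX replicate 3 or YAP1 replicates 2 or 3 or YAP1-S127A replicates 1, 2 or 3, and 0.0723 by limma-voom).

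Markers of fibroblasts and stroma were the list with the largest median outside the mitochondrial genes, 1.08 over 8 tested of 13. Calls took 62.5% of the 8, beside 1.97% of all genes. The list was chosen with earlier results of these data known. Its members COL1A1, COL1A2, LUM and MFAP5 were also counted in the matrix lists above. Of the 8, 5 were higher and 0 lower: COL1A1, COL1A2, LUM and MFAP5 above, and PDGFRB, the receptor of platelet-derived growth factor, at 23.5, 28.4 and 26.1 CPM with YAP1 against 36.1, 58.8 and 45.4 CPM with YAP1-S127A (log2 fold change 0.85, SE 0.15, adjusted p = 0.00420). DCN at 1.01, FAP at 1.16 and COL6A3 at -0.07 did not pass. The list's summed level, most of it COL1A1, was 857 to 1390 CPM in MX, 1421 to 1744 CPM with YAP1 against 2188 to 4036 CPM with YAP1-S127A. Of its 13 members PDGFRA, THY1, POSTN and DPT stayed under 1 CPM in every library, DPT at 0. COL3A1, a fibrillar collagen chain that did not pass the filter on low counts, had 7 counts over the YAP1 libraries and 137 over the YAP1-S127A libraries, where it stood at 0.534, 5.65 and 2.15 CPM. Whether cells of another type had a part in these values was not tested. Without 1 library at a time, 2 to 5 of the 8 were called, lowest without YAP1 replicate 3.

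Among 28 tested genes of the actin cytoskeleton 1 was called (3.57%, beside 1.97% of all genes). TAGLN, the actin-binding transgelin, stood at 16.7, 18.8 and 16.1 CPM with YAP1 against 44.002, 66.2 and 41.3 CPM with YAP1-S127A (log2 fold change 1.55, SE 0.18, adjusted p = 0.000164), while the list's median was -0.05. It was also the 1 call among 5 tested smooth muscle markers (20%). There ACTA2, smooth muscle actin, at 8.81, 9.52 and 6.52 against 8.39, 9.51 and 5.83 CPM, SMTN at -0.21, RGS5 at -0.17 and CNN1 at 0.65 on the log2 scale did not pass. S100A4, a calcium-binding protein of motile cells, stood at 24.3, 24.3 and 22.5 against 50.7, 62.5 and 66.4 CPM (log2 fold change 1.34, SE 0.19, adjusted p = 0.00103). NES, the intermediate filament nestin, was lower at 34.8, 37.7 and 38.95 against 21.05, 21.8 and 19.4 CPM (log2 fold change -0.84, SE 0.13, adjusted p = 0.00106). S100A4 and NES were the calls among 19 mesenchymal genes (10.5%). The other 17 did not pass, among them vimentin VIM at 0.04, N-cadherin CDH2 at 0.22 and the repressors ZEB1 at 0.16 and SNAI2 at 0.28. Among 24 integrins and adhesion adaptors 12.5% were called, of which 2, chains of collagen receptors, were higher. ITGA1 stood at 11.1, 12.1 and 13.4 against 16.9, 19.3 and 21.3 CPM (log2 fold change 0.66, SE 0.16, adjusted p = 0.0388). ITGA11 stood at 1.19, 0.397 and 0.621 against 3.58, 17.1 and 6.09 CPM (log2 fold change 3.59, SE 0.64, adjusted p = 0.0247). ITGB3, the beta chain of the vitronectin receptor, was lower at 78.8, 80.5 and 104 against 58.1, 47.2 and 53.6 CPM (log2 fold change -0.73, SE 0.13, adjusted p = 0.00497). The call of ITGA1 was lost (adjusted p 0.0879 to 0.239 without any 1 of YAP1 replicates 1, 2 or 3 or YAP1-S127A replicates 2 or 3, 0.143 scaled to total counts and 0.167 with the mitochondrial covariate, at a log2 fold change of 0.64). ITGA11 lost its call as well (adjusted p 0.0644 to 0.145 without any 1 of MX replicates 1, 2 or 3 or YAP1 replicates 2 or 3, 0.157 with the 6 libraries alone, 0.0901 with the replicate block and 0.0854 scaled to total counts). The call of ITGB3 was lost (adjusted p 0.0553 without YAP1 replicate 3).

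MEGF6, a secreted protein with epidermal growth factor-like repeats, completed the largest rises, at 3.47, 5.72 and 6.61 against 13.6, 21.6 and 14.03 CPM (log2 fold change 1.63, SE 0.24, adjusted p = 0.000927). Keratins were mixed, with 3 of 9 higher, 1 lower (44.4% called, beside 1.97% of all genes) and a median of 0.46. KRT7 stood at 3.52, 3.85 and 2.66 CPM with YAP1 against 5.41, 9.39 and 8.98 CPM with YAP1-S127A (log2 fold change 1.26, SE 0.23, adjusted p = 0.00553). KRT80 stood at 118, 132 and 136 against 181, 195 and 175 CPM, and KRT34 at 1.14, 1.13 and 0.843 against 2.75, 3.04 and 3.89 CPM. KRT19, of simple epithelia, was lower at 510.3, 473 and 436 against 266, 356 and 273 CPM (log2 fold change -0.67, SE 0.15, adjusted p = 0.0271). The libraries of the groups were separate in all 4, as in 304 of all 305 called genes. All 4 keratin calls were lost without single libraries, KRT7 (adjusted p 0.0555 to 0.0603 without any 1 of YAP1 replicate 3 or YAP1-S127A replicate 3), KRT80 (adjusted p 0.0573 to 0.143 without any 1 of YAP1 replicates 1, 2 or 3 or YAP1-S127A replicates 1, 2 or 3), KRT34 (adjusted p 0.0681 to 0.203 without any 1 of YAP1 replicates 1, 2 or 3 or YAP1-S127A replicates 2 or 3) and KRT19 (adjusted p 0.0609 to 0.174 without any 1 of YAP1 replicates 1, 2 or 3 or YAP1-S127A replicates 1 or 3). With the mitochondrial covariate calls were lost for KRT19 (0.407, at a log2 fold change of -0.43), KRT34 (0.0909, at 1.73) and KRT80 (0.0698, at 0.57). Scaled to total counts, KRT80 lost its call as well (0.246).

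The largest falls included junction proteins of the tubule epithelium. CLDN2 (ENSG00000165376, chromosome X, 106900164 to 106930861, plus strand), a claudin that makes tight junctions permeable to cations, had the smallest p of all genes. It stood at 323, 408 and 396 CPM with YAP1 against 144, 108 and 128 CPM with YAP1-S127A, 2.96-fold lower (log2 fold change -1.57, SE 0.13, adjusted p = 7.05e-06). CDH1, E-cadherin of epithelial adherens junctions, stood at 17.2, 17.3 and 12.7 against 5.11, 8.18 and 6.09 CPM (log2 fold change -1.28, SE 0.19, adjusted p = 0.000927). In both genes the lowest YAP1 library lay well above the highest YAP1-S127A library. Of 22 epithelial junction genes 9.09% were thus called, beside 1.97% of all genes. The other 20 of the 22 did not pass, and the list's median was 0.07. Claudins CLDN7 at 1.14, CLDN3 at 0.65 and CLDN4 at 0.47, EPCAM at -0.04 and the tight junction scaffold TJP1 at -0.02 were among them. CLDN2 and CDH1 kept their calls without any single library.

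**Figure D4:**
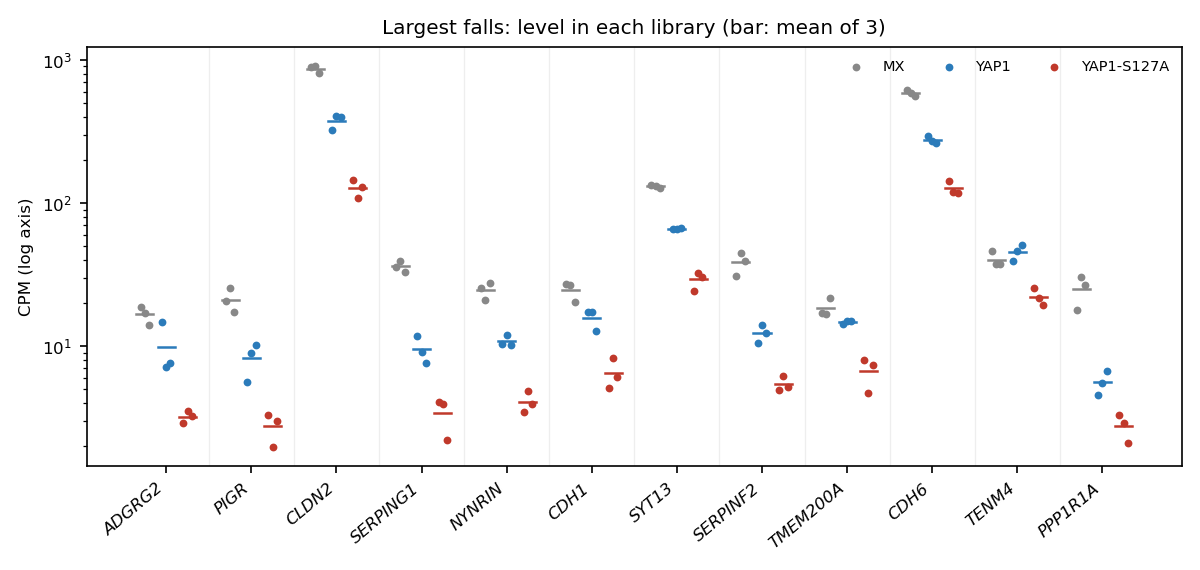
CPM on a log axis in each library for the 12 largest falls by the naming rule, with grey MX, blue YAP1 and red YAP1-S127A points and bars at the mean of 3. The rule took only genes whose groups do not overlap, and CLDN2 and CDH6 are the most abundant of the 12.

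Markers of the kidney tubule and its PAX8 lineage had the lowest median of all lists, -0.47, with 5 of 14 tested genes lower and 0 higher. That is 35.7% called, beside 1.97% of all genes. CDH6 (ENSG00000113361, chromosome 5, 31193750 to 31329146, plus strand), a cadherin of the developing and mature proximal tubule, stood at 295, 273 and 264 CPM with YAP1 against 142, 119.5 and 118 CPM with YAP1-S127A (log2 fold change -1.13, SE 0.12, adjusted p = 3.32e-05). SLC4A4, the bicarbonate cotransporter of the proximal tubule, stood at 27.5, 37.1 and 43.8 against 16.02, 19.9 and 22.4 CPM (log2 fold change -0.89, SE 0.17, adjusted p = 0.00553). VCAM1, an adhesion molecule, stood at 825, 1074 and 965 against 618, 567 and 658 CPM (log2 fold change -0.64, SE 0.14, adjusted p = 0.0177). LHX1, a homeobox factor of kidney development, stood at 43.6, 41.8 and 45.3 against 31.1, 22.6 and 28.5 CPM, and DPP4, a brush border peptidase, at 48.4, 64.1 and 67.6 against 43.3, 38.9 and 37.7 CPM. All 5 fell without overlap between groups. Separation in that direction was seen in 9.34% of all tested genes, and in either direction in 304 of the 305 called genes. PAX8 itself, the lineage factor, at -0.18, CUBN at 0.24 and MME at 0.46 did not pass. PAX2, HNF4A, LRP2 and UMOD stayed under 1 CPM in every library, HNF4A and UMOD at 0. In bulk RNA, fewer cells expressing a gene and less RNA per cell cannot be told apart.

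The summed level of the tubule list was 3657 to 4087 CPM in MX, 2199 to 2534 CPM with YAP1 against 1562 to 1683 CPM with YAP1-S127A. Its largest single part was VCAM1, at 1800 to 2230 CPM in MX, 825 to 1070 CPM with YAP1 and 567 to 658 CPM with YAP1-S127A. CDH6 kept its call in every fit run, while calls were lost for SLC4A4 (adjusted p 0.0532 without YAP1 replicate 3), VCAM1 (adjusted p 0.0631 to 0.124 without any 1 of YAP1 replicates 2 or 3 or YAP1-S127A replicates 2 or 3), LHX1 (adjusted p 0.0583 to 0.0668 without any 1 of YAP1 replicate 3 or YAP1-S127A replicate 2) and DPP4 (adjusted p 0.0852 to 0.143 without any 1 of YAP1 replicates 2 or 3 or YAP1-S127A replicates 2 or 3). With the mitochondrial share as covariate all 5 were called. Without 1 library at a time the list had 1 call (without YAP1 replicate 3) to 7 (without MX replicate 1). Among 14 solute carriers of the proximal tubule 2 were lower and 0 higher (14.3% called, beside 1.97% of all genes), with a median of -0.18. These were SLC4A4 and SLC7A7, an amino acid transporter at 30.2, 32.5 and 31.5 against 24.5, 20.6 and 20.1 CPM (log2 fold change -0.54, SE 0.12, adjusted p = 0.0255). The call of SLC7A7 was lost too (adjusted p 0.0591 to 0.171 without any 1 of YAP1 replicates 1, 2 or 3 or YAP1-S127A replicates 2 or 3, and 0.0697 with the mitochondrial covariate, at a log2 fold change of -0.62).

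Secreted inhibitors of proteases and complement were among the falls. SERPING1, the inhibitor of complement C1, stood at 11.8, 9.12 and 7.59 CPM with YAP1 against 4.04, 3.93 and 2.21 CPM with YAP1-S127A (log2 fold change -1.50, SE 0.21, adjusted p = 0.000754). SERPINF2, the plasmin inhibitor, stood at 10.5, 14.1 and 12.3 against 4.96, 6.15 and 5.20 CPM (log2 fold change -1.17, SE 0.17, adjusted p = 0.000964). Both stayed called without any single library. F2RL1, a receptor cut by trypsin-like proteases, stood at 20.5, 23.3 and 23.2 against 11.4, 13.3 and 17.2 CPM, and was called less firmly (adjusted p 0.0795 to 0.0932 without any 1 of YAP1 replicates 2 or 3 or YAP1-S127A replicates 1 or 2, and 0.12 with the mitochondrial covariate, at a log2 fold change of -0.66). Of 19 complement and coagulation genes 3 were lower, SERPING1 and F2RL1 among them, and 0 higher (15.8% called, beside 1.97% of all genes). The list's median was -0.02. Of 22 matrix proteases and inhibitors 2 were higher, among them ADAMTS12, a matrix metalloprotease at 27.4, 36.6 and 35.8 against 46.9, 50.2 and 47.2 CPM, and SERPINF2 was lower (13.6% called). ADAMTS12 lost its call in 6 fits (adjusted p 0.0531 to 0.164 without any 1 of YAP1 replicates 1, 2 or 3 or YAP1-S127A replicates 1, 2 or 3), scaled to total counts (0.223) and with the mitochondrial covariate (0.135, at a log2 fold change of 0.51).

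Other large falls were spread over functions. SYT13, of the synaptotagmin family of vesicle proteins, stood at 65.2, 66.2 and 66.9 CPM with YAP1 against 24.4, 32.6 and 30.5 CPM with YAP1-S127A (log2 fold change -1.18, SE 0.12, adjusted p = 3.32e-05), with hardly any spread among the YAP1 libraries. PIGR, the receptor that carries immunoglobulins across epithelia, stood at 5.65, 8.90 and 10.2 against 3.28, 1.97 and 2.99 CPM (log2 fold change -1.60, SE 0.24, adjusted p = 0.00133). ADGRG2, an adhesion G-protein-coupled receptor, stood at 14.7, 7.14 and 7.59 against 2.90, 3.49 and 3.26 CPM (log2 fold change -1.60, SE 0.25, adjusted p = 0.00174). In ADGRG2 the first YAP1 library stood well above the others of its group. NYNRIN, a protein with nuclease and integrase-like domains, stood at 10.3, 11.96 and 10.2 against 3.43, 4.82 and 3.94 CPM, and TENM4, a teneurin of cell contacts, at 39.6, 45.9 and 50.9 against 25.5, 21.5 and 19.2 CPM. TMEM200A, a membrane protein, stood at 14.1, 14.9 and 15.04 against 7.93, 4.69 and 7.35 CPM, and PPP1R1A, an inhibitor of protein phosphatase, at 4.56, 5.55 and 6.65 against 3.28, 2.92 and 2.10 CPM. These 4 had log2 fold changes of -1.40, -1.05, -1.14 and -1.04. The rule for the largest falls took only genes whose groups did not overlap, so that separation is no finding about them. PPP1R1A lost its call without 4 single libraries (adjusted p 0.0704 to 0.219 without any 1 of YAP1 replicates 2 or 3 or YAP1-S127A replicates 2 or 3) and by limma-voom (0.148). With the mitochondrial covariate calls were lost for PPP1R1A (0.0721, at a log2 fold change of -1.16) and ADGRG2 (0.0503, at -1.29).

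Against the empty vector, called genes took different paths, given here as values, since all 3 comparisons share libraries. CLDN2 stood at 868 ± 51.3 CPM in MX (mean and SD, n = 3) and fell to 376 ± 45.97 CPM with YAP1, then 127 ± 17.7 CPM with YAP1-S127A. Its log2 fold change against MX was -1.21 with YAP1 and -2.77 with YAP1-S127A. CDH6 had -1.08 and -2.21, SYT13 -0.98 and -2.16, FGFBP1 1.98 and 3.67, and MSLN 3.17 and 5.33, each past an adjusted p of 0.05 against MX with both constructs. For these 5 genes the YAP1 libraries thus lay between MX and YAP1-S127A.

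For other genes YAP1 against MX did not pass, which does not show that the levels were alike. DKK1 stood at 3.78 ± 0.588 CPM in MX and 4.45 ± 0.592 CPM with wild-type YAP1, beside 16.1 ± 3.43 CPM with YAP1-S127A, and YAP1 against MX gave 0.24 (adjusted p = 0.572). The same contrast gave -0.14 for LRRC32 (adjusted p = 0.800), 0.18 for TENM4 (0.528), -0.34 for TMEM200A (0.266) and 0.42 for TGFB2 (0.269). TMEM200A stood at 17.1, 16.8 and 21.7 CPM in MX, above all its YAP1 libraries. YAP1-S127A against MX gave 2.10, 1.27, -0.87, -1.48 and 1.78 for the same 5 genes, each past the threshold. ITGB3 and KRT19 stood lower with YAP1-S127A than with YAP1, and YAP1-S127A against MX did not pass for either (ITGB3 -0.34, adjusted p = 0.0823, and KRT19 -0.24, adjusted p = 0.318).

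Genes given a transcription factor family in the authors' annotation were called about as often as genes in general, 24 of 1093 (2.20%, beside 1.97%). Of the 24, 12 went in each direction. They are named after their values were seen unless they were members of a list. LHX1, given above, was not among the 24. BHLHE41, a repressor of the circadian clock, stood at 74.2, 66.5 and 65.6 CPM with YAP1 against 48.3, 32.3 and 35.5 CPM with YAP1-S127A (log2 fold change -0.83, SE 0.14, adjusted p = 0.00283). MAF, a basic leucine zipper factor, stood at 1.04, 1.64 and 1.24 against 4.35, 3.68 and 4.62 CPM (log2 fold change 1.69, SE 0.30, adjusted p = 0.00420). ZNF114, a zinc finger protein, stood at 0.311, 0.227 and 0.266 against 1.68, 1.52 and 1.63 CPM (log2 fold change 2.55, SE 0.46, adjusted p = 0.00448). ATF3, a stress-induced factor, stood at 22.4, 19.3 and 20.01 against 34.2, 29.9 and 40.98 CPM (log2 fold change 0.77, SE 0.15, adjusted p = 0.00595). ZNF114 and MAF were low in all libraries. The other factors called higher were KLF5, SPI1, MSX1, EPAS1, SOX17, NR4A1, IKZF1, FOSB and BATF3. Those called lower included TCF7, ID2, NR1H4, MYRF, POU3F3, TBX15, STAT4, SOX9, MSC and VDR. EPAS1, a hypoxia-inducible factor, stood at 38.7, 31.8 and 33.5 against 49.9, 50.2 and 47.8 CPM. EPAS1 lost its call (adjusted p 0.0727 to 0.168 without any 1 of YAP1 replicates 2 or 3 or YAP1-S127A replicates 1, 2 or 3, 0.282 scaled to total counts and 0.0873 with the mitochondrial covariate, at a log2 fold change of 0.55). Apart from BHLHE41, MAF and ZNF114, every called factor lost its call without at least 1 single library, ATF3 among them (adjusted p 0.0524 to 0.0792 without any 1 of YAP1 replicate 2 or YAP1-S127A replicate 3, and 0.0955 with the mitochondrial covariate).

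Long noncoding RNAs and genes of low level held some of the largest ratios. Of the 4 long noncoding RNAs with the smallest p, FILNC1 stood at 0.466, 0.623 and 0.444 against 2.29, 2.79 and 3.31 CPM (log2 fold change 2.46, SE 0.37, adjusted p = 0.000964). LINC02154 stood at 1.04, 0.793 and 1.02 against 6.25, 3.87 and 3.36 CPM (log2 fold change 2.22, SE 0.34, adjusted p = 0.00126). AC078850.1 stood at 25.2, 26.6 and 22.8 against 43.5, 40.3 and 48.6 CPM (log2 fold change 0.83, SE 0.13, adjusted p = 0.00197). AL161431.1 stood at 6.84, 2.95 and 1.51 against 36.9, 38.2 and 55.3 CPM (log2 fold change 3.55, SE 0.53, adjusted p = 0.0244). All 4 were higher with YAP1-S127A. AL161431.1 lost its call without 3 single libraries (adjusted p 0.0777 to 0.119 without any 1 of YAP1 replicate 2 or YAP1-S127A replicates 2 or 3), with the 6 libraries alone (0.0713), with the replicate block (0.0818) and with the mitochondrial covariate (0.0698, at a log2 fold change of 3.77). RPE65, a retinoid isomerase of the eye, had 46 counts over the YAP1-S127A libraries and 2 over the YAP1 libraries. The ratio at equal depth was 28.6 with a 95% exact interval of 7.47 to 243, which covers counting error only. COL11A1, a fibrillar collagen chain, had 187 counts against 17 (ratio 13.7, interval 8.30 to 23.9), and CHRDL1, a secreted BMP antagonist, 100 against 9 (13.8, 6.98 to 31.0). All 9 YAP1 counts of CHRDL1 came from replicate 3. RPE65, COL11A1 and CHRDL1 were picked for the size of their rises. Only their YAP1-S127A libraries held 10 or more counts, so they passed the filter through that group. Large ratios are thus partly built in, and the intervals do not allow for this.

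In the other direction, TSHR, the thyrotropin receptor, had 1 count over the YAP1-S127A libraries and 48 over the YAP1 libraries, a ratio of YAP1 to YAP1-S127A of 38.7 (6.62 to 1560). SULT1C4, a sulfotransferase, had 1 against 33 counts (26.6, 4.45 to 1080), and TRABD2B, a membrane metalloprotease that acts on Wnt ligands, 5 against 96 (15.5, 6.40 to 48.7). MUC16, a membrane mucin and a binding partner of mesothelin, had 6 against 63 (8.46, 3.68 to 23.9). These 4 genes were picked for the size of their falls, which the intervals do not allow for. In MX, TSHR stood at 4.24, 5.86 and 3.64 CPM and TRABD2B at 5.63, 8.52 and 7.55 CPM, above their YAP1 libraries. TSHR and TRABD2B kept their calls in every fit run, while calls were lost for SULT1C4 (adjusted p 0.0792 without YAP1-S127A replicate 3), for MUC16 (adjusted p 0.0535 to 0.276 without any 1 of MX replicates 2 or 3 or YAP1 replicates 1, 2 or 3 or YAP1-S127A replicates 2 or 3, and 0.0533 with the mitochondrial covariate) and for CHRDL1 by DESeq2 (0.0863).

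Stress and response lists held 1 or 2 calls each, 9.52% of the unfolded protein list, 10% of immediate early genes and 5% of NRF2 targets, beside 1.97% of all tested genes. Of 21 genes of the unfolded protein and ATF4 response, ATF3 and DNAJB9, a chaperone of the endoplasmic reticulum at 36.4, 51.7 and 48.002 against 64.5, 60.95 and 71.8 CPM (adjusted p 0.0536 to 0.223 without any 1 of MX replicate 3 or YAP1 replicates 1 or 3 or YAP1-S127A replicates 1, 2 or 3), were higher. Of 20 immediate early genes, ATF3 and FOSB, an AP-1 factor at 3.26, 2.15 and 2.75 against 6.56, 7.04 and 5.04 CPM (adjusted p 0.0794 to 0.189 without any 1 of YAP1 replicates 1, 2 or 3 or YAP1-S127A replicates 1, 2 or 3), were higher, and of 20 NRF2 targets ABCC3, an organic anion exporter at 259, 317 and 321 against 191, 186 and 221 CPM (adjusted p 0.0710 to 0.0873 without any 1 of YAP1 replicates 2 or 3 or YAP1-S127A replicate 2), was lower. The medians of these 3 lists were 0.03, -0.04 and -0.03. With the mitochondrial covariate calls were lost for ATF3 (adjusted p = 0.0955, log2 fold change 0.66), DNAJB9 (0.314, 0.41) and FOSB (0.0698, 1.34).

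Of 43 gene lists 28 held at least 1 called gene and 15 held 0 in edgeR's test. With 1.97% of all genes called, 0 calls in a list of this size is near the background share and is no result about the list. Interferon-stimulated genes gave 0 of 36 (2 before adjustment at 0.05, 1 with DESeq2, 0 with limma-voom). G1/S and DNA replication genes gave 0 of 30 with a median of -0.16 (3, 0 and 0 in that order), and G2/M and mitosis genes 0 of 27 with a median of -0.01 (1, 1 and 0). Hypoxia targets and glycolysis gave 0 of 29 with a median of -0.13 (3, 0 and 0), cholesterol synthesis 0 of 23 (2, 0 and 0), MHC class I presentation 0 of 15 (0, 0 and 0) and the nuclear-encoded respiratory chain 0 of 33 with a median of 0.08 (3, 0 and 0). Members with the smallest p in 3 of these lists, given as values, were UHRF1, which maintains DNA methylation, at -0.36 (adjusted p = 0.126), ECT2, an exchange factor of cytokinesis, at 0.34 (0.125) and SLC2A1, the glucose transporter, at -0.40 (0.306). Of 10 D cyclins and CDK inhibitors, 10 Notch genes and 15 lysyl oxidases and collagen hydroxylases 0 were called (1, 1 and 3 before adjustment, 0, 0 and 1 with DESeq2, and 0 in each with limma-voom). In the last of these lists LOXL1, a lysyl oxidase, had 0.72 at an adjusted p of 0.0541. It was called in 8 other fits, among them DESeq2 (0.0207), the 6 libraries alone (0.0258) and the replicate block (0.00954), where 4 members of the list were higher. Cytosolic ribosomal proteins (34) and housekeeping genes (23) gave 0 calls with medians of 0.07 and 0.02 (0 and 2 at an unadjusted p under 0.05, and 0 by either other tool).

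**Figure D5:**
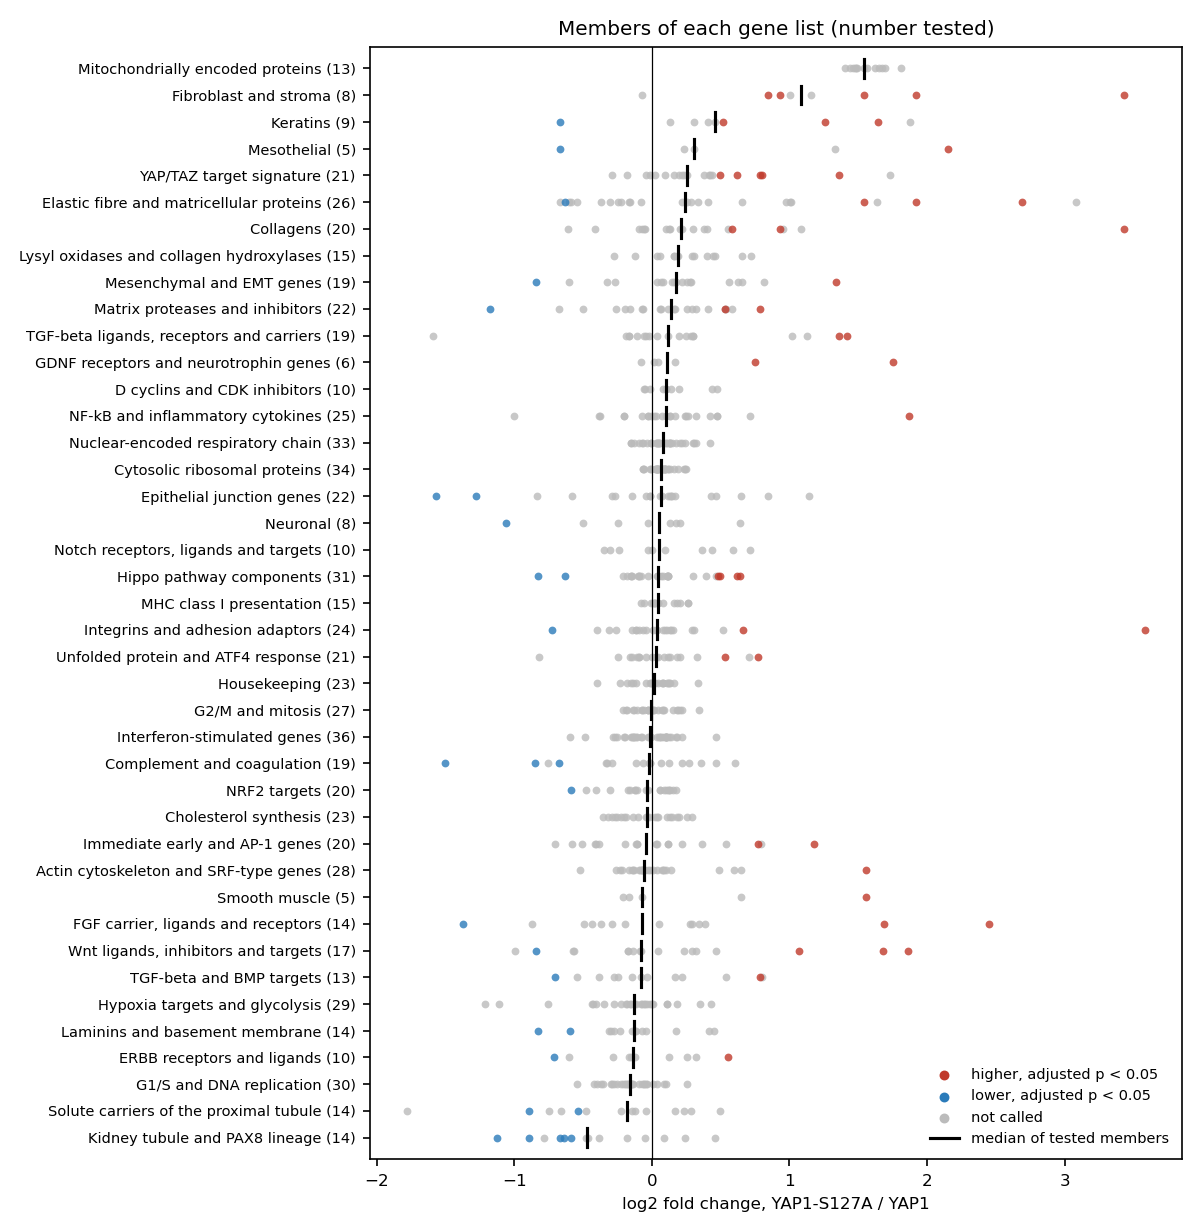
Log2 fold change of YAP1-S127A over YAP1 (horizontal) for the tested members of each list with at least 5 of them, ordered by their median (black bar), with red and blue points for calls and grey points for the rest. Fibroblast and stroma markers (median 1.08) and kidney tubule markers (-0.47) lie at the ends of the nuclear lists, and the 13 mitochondrially encoded genes (1.55) hold 0 calls.

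Markers of other cell types differed in level. Of 10 endothelial markers 9 were under 1 CPM in every library, and the summed level was 1.508 to 1.710 CPM with YAP1 against 1.471 to 1.678 CPM with YAP1-S127A. Of 12 leukocyte markers 9 were under 1 CPM, CD3E, CD3D and FCGR3A at 0, and the sum was 2.32 to 3.86 CPM and 2.73 to 4.27 CPM. Neuronal markers summed to 41.2 to 48.2 and 40.5 to 48.7 CPM, most of it SYT1, a synaptotagmin at 24.3, 26.97 and 26.9 against 32.6, 25.4 and 27.7 CPM. NEFL, a neurofilament chain, was the 1 called member of 8 (12.5%, beside 1.97% of all genes), lower at 4.09, 3.97 and 5.81 against 2.59, 2.54 and 1.63 CPM (adjusted p 0.164 to 0.177 without any 1 of YAP1 replicate 3 or YAP1-S127A replicate 3, and 0.0893 with the mitochondrial covariate). Mesothelial markers gave 2 calls among 5 tested (40%, beside 1.97% of all genes), MSLN higher and KRT19 lower. Of the 9 in the table, the 4 genes WT1, CALB2, PDPN and ITLN1 stayed under 1 CPM. LRRN4, at 55.8, 69.7 and 64.1 against 61.8, 78.1 and 82.6 CPM, did not pass (log2 fold change 0.23, SE 0.15, adjusted p = 0.558). BNC1, at 37.1, 34.9 and 41.3 against 52.6, 41.2 and 46.9 CPM (log2 fold change 0.31, SE 0.13, adjusted p = 0.329), and UPK3B, at 0.881, 0.793 and 0.577 against 0.534, 2.85 and 2.15 CPM (log2 fold change 1.33, SE 0.48, adjusted p = 0.220), did not pass either, and in all 3 the groups overlapped. The list's sum was 565.4 to 632.5 CPM with YAP1 and 473.6 to 632.0 CPM with YAP1-S127A. The part of any such cells in the results was not tested.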

How the data were processed

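RNA of 9 libraries, 3 each of MX, YAP1 and YAP1-S127A, was sequenced with a stranded messenger RNA kit, per the labels. The authors deposited 1 table of raw counts per human Ensembl gene with symbols, positions, biotypes, transcription factor families and gene lengths (the authors' values, used only to form 5 length classes). The submitters' processing notes name HISAT2, Cufflinks, Salmon 1.9.0 and the mouse build GRCm39, which these human genes do not match, and the sources used here do not give the counter, its strand setting or the human build. Genes were filtered with filterByExpr, which left 15492, scaled by TMM, and fitted over all 9 libraries in edgeR 4.0.16 (R 4.3.3), with 1 coefficient per group and robust estimation of quasi-likelihood dispersion. The contrast YAP1-S127A minus YAP1 was tested two-sided. P-values were adjusted by Benjamini-Hochberg over the 15492 genes, and called under 0.05. Standard errors were derived from the fold change and the F statistic. CPM are TMM-scaled. Single libraries held 15789722 to 24811150 counts, and no 2 libraries of a group agreed within sampling noise.

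The comparison, its 43 gene lists and its rules were chosen with earlier results of these data known. Named genes were YAP1, 4 YAP targets, the 12 largest rises and 12 largest falls among called protein-coding genes whose groups were separate and whose mean log2 CPM was 3 or more, up to 4 called members of each list by p (or the member with the smallest p where 0 were called), 4 long noncoding RNAs, and the 4 largest rises and falls below that level. This took 97 genes, 80 of them called. A further 23, other called list members and transcription factors, were taken after their values were seen, as were BGN, IGFBP3, SULF2, COL14A1, COL3A1 and the uncalled members given as values. Some genes the rule names are not reported here. Lists were described by counts and medians, with no set test. Alternatives were other scalings (RLE, total counts), filters, gene sets and libraries, DESeq2 1.42.0, limma-voom (limma 3.58.1), glmTreat at a fold of 1.2, the replicate number as a block, the mitochondrial share as covariate, chromosome-wide shifts removed and each library left out. YAP1-S127A reduced to its replicate 2 was added after seeing the data. The steps were tested on simulated counts.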

Additional observations from a re-analysis of the deposited data

How the results depend on the processing

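All 103 called genes that were followed kept their direction under every alternative that could test them. Besides YAP1, 29 of 102 stayed called in all fits, 73 lost the call in at least 1 and 60 without some single library, most often YAP1-S127A replicate 3 (49) and YAP1 replicate 3 (48). The counts of 305 changed, 124 changed at least 2-fold, 175 higher and 130 lower genes became 616, 203, 113 and 503 scaled to total counts, where 18.3% of calls were higher beside 57.4%. Without a filter 520 changed (288 higher, 232 lower), with the 6 libraries alone 478 (276 and 202), by DESeq2 475 (217 lower), against a minimum fold of 1.2 134 (82 and 52), and with YAP1-S127A reduced to its replicate 2, chosen after seeing the data, 151 (98 and 53). The cause of these shifts was not tested. RLE scaling, the stricter filter, protein-coding genes alone, limma-voom, the mitochondrial covariate and removed chromosome shifts gave 257 to 315. Of the 305 genes 184 were shared with the covariate fit, in which 34 of the 102 genes followed lost the call. Without single libraries the counts ran from 126 to 465 changed, 81 to 169 at least 2-fold, 75 to 258 higher and 51 to 207 lower, the YAP1 log2 fold change from -0.96 to -0.64 and the difference in mitochondrial share from 6.48 to 17.56 points. The YAP1 call was lost with the mitochondrial covariate (-0.80, adjusted p = 0.0541) and with replicate 2 alone (-0.83, adjusted p = 0.127).

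With the replicate number as a block 472 genes changed, 271 higher and 201 lower. Libraries of both constructs with the same number correlated in their deviations at only -0.00359, 0.0483 and 0.0787, so the numbers were not taken to pair them. Low counts limit the genes under a mean log2 CPM of 0, where 0.835% were called.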
